A study of Mus musculus with 36 samples.

Results

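The clustered protocadherins are neuronal adhesion genes that lie in 3 neighbouring groups on mouse chromosome 18. They were taken from the annotation of the deposited count table by symbol (Pcdha followed by a number or c, Pcdhb followed by a number, Pcdhga, Pcdhgb or Pcdhgc). The rule found 59 of the table's 24344 genes, made up of 14 alpha, 22 beta and 23 gamma members. All 59 passed the filter on low counts, among 20108 genes that did. On GRCm38, every member lies on the plus strand. The alpha cluster covers positions 36930184 to 37187661, the beta cluster 37264938 to 37524479 and the gamma cluster 37661793 to 37841873.

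The libraries measured polyA RNA from the dorsal vagal complex, a hindbrain region labelled as 2 nuclei, the solitary tract nucleus with the vagal dorsal motor nucleus. The series asks how genotype and diet act together in mouse models of type 2 diabetes. There were 36 libraries, 3 for each combination of strain, diet and sex. The strains were C57BL/6J, from which the mouse reference genome was built, the obese and diabetes-prone NZO/HlLtJ, and CAST/EiJ, which descends from wild-caught mice. All mice were labelled genotype WT and treatment None. From 6 weeks of age they ate either the control diet (10% fat + fiber) or a high fat, high sugar diet (HFHS, 44% fat + fiber), and tissue was taken at 15 weeks. Each strain thus had 12 libraries, 6 per diet.

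Clustered protocadherins are cell surface proteins that bind the same isoform on a neighbouring membrane, and the set of isoforms a neuron carries lets its branches recognise and avoid each other. Each alpha or gamma isoform joins its own large first exon, with its own promoter, to small constant exons that the whole cluster shares, while each beta gene is a single exon with no constant part. Most neurons are thought to use a few of the alternate isoforms, chosen by chance through CTCF and cohesin looping, DNA methylation and enhancers, and to use the C-type isoforms (Pcdhac1, Pcdhac2, Pcdhgc3, Pcdhgc4 and Pcdhgc5) more widely.

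The 3 highest levels in this tissue were those of C-type isoforms, though not every C-type isoform was high. Levels are in CPM, a gene's count per 1000000 counts of its library, and are set side by side between genes only per kb of transcript. Pcdhgc3, an isoform known to bind Axin1 and to dampen Wnt signalling, was highest of all members at 17.7 ± 3.6 CPM per kb (SD, n = 36). Pcdhac2, which serotonin neurons need to space their axons, followed at 6.06 ± 0.58 CPM per kb, and Pcdhgc4, the gamma isoform that neurons need to survive, at 4.86 ± 0.89 CPM per kb. These 3 stood above every alternate isoform. Pcdhgc5 stood lower, at 2.46 ± 0.37 CPM per kb, and Pcdhac1 lower again, at 0.579 ± 0.15 CPM per kb. Among the alternate isoforms, Pcdhga12 and Pcdhb9 had the highest levels per length, both at 2.83 CPM per kb. The median member was at 0.578 CPM per kb in the alpha cluster, 1.63 in the beta cluster and 1.85 in the gamma cluster. Pcdhac2 alone supplied 45.9% ± 2.8 of the summed alpha CPM, and Pcdhgc3 supplied 29.7% ± 4.3 of the summed gamma CPM (SD, n = 36).

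**Figure D1:**
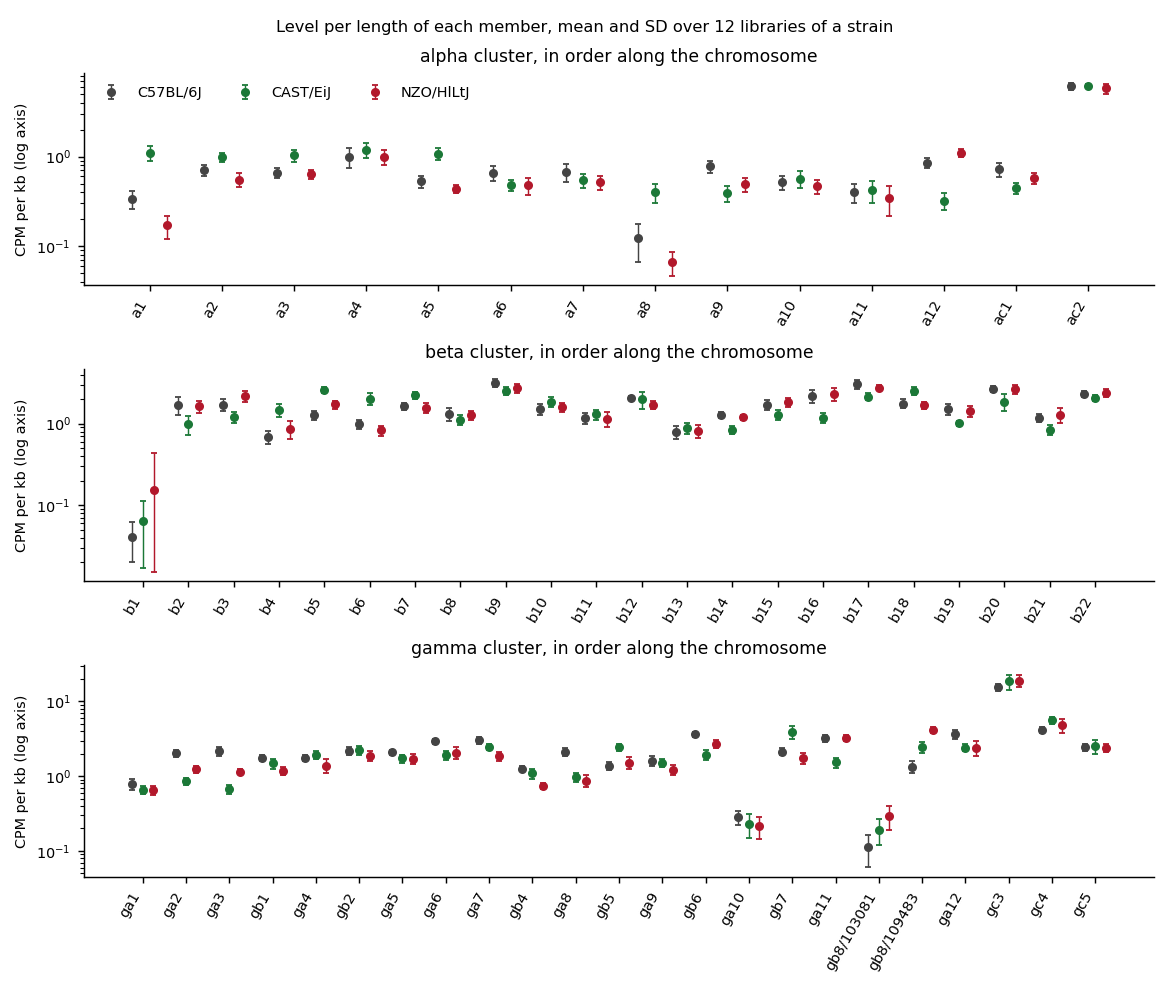
Level of each member per length (CPM per kb, log axis) in chromosome order; points are the mean of the 12 libraries of a strain and bars the SD, with the lower bar of Pcdhb1 in NZO/HlLtJ shortened because it passes 0. Pcdhgc3, Pcdhac2 and Pcdhgc4 stand above the rest in all 3 strains, while Pcdha1, Pcdha8 and Pcdha12 differ widely between strains.

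How far reads can be told apart differed sharply between the 3 clusters. The deposited counts are expected counts, in which a read that matches several transcripts is divided among them, so a value that is not whole shows that reads were divided. Over all genes, 21.2% of values were non-whole. In the alpha cluster 100% were, in the gamma cluster 89.5% and in the beta cluster 21.5%. The 14 alpha members and 11 of the 23 gamma members had a non-whole count in every one of the 36 libraries. In contrast, 11 of the 22 beta members (Pcdhb1 to Pcdhb3 and Pcdhb13 to Pcdhb20) had whole counts throughout.

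The transcript models followed the same order. For each member, the share of its 50-base sequences that also occur in another gene was counted in the GENCODE vM21 transcripts, on either strand. Whether the read counting used strand is not given in the sources used here. Sequences held by much of the cluster, the constant exons, made up 48.2% to 56.4% of an alpha transcript. They made up 41.2% to 45.3% of a gamma transcript, apart from 1 Pcdhgb8 entry at 11.9%. The 11 whole-count beta members shared 0 to 5.47% of their sequences. Several members are almost wholly covered by an overlapping gene model: outside the constant exons, Pcdha4 shared 98.1% of its sequences, mainly with Gm42416, Pcdha11 shared 95.8%, mainly with Gm10545, and Pcdhga10 shared 98.2%, mainly with Gm26672. Pcdhgc3 shared 57.1% of its variable sequences with other genes, most of all BC037039, and Pcdhb12, the only beta member with a non-whole count in all 36 libraries, shared 64.2%, most of all with Gm37446. Gm26672 itself averaged 14.2 CPM in C57BL/6J, 9.05 in CAST/EiJ and 10.7 in NZO/HlLtJ, against 1.35, 1.15 and 0.964 CPM for the median library of Pcdhga10. The other overlapping genes took fewer counts: Gm42416 averaged 0.00308 CPM against 5.70 for Pcdha4, BC037039 3.596 against 82.9 for Pcdhgc3, Gm37446 1.60 against 5.83 for Pcdhb12, and Gm10545 1.40 against 2.08 for Pcdha11. Reads of these 5 members could be split with the overlapping entry, so their levels are uncertain. How reads were divided was not measured, and Gm26672 also shared sequence with other gamma members, such as Pcdhga11.

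Names needed care as well. The table lists ENSMUSG00000007440 as a second Pcdha11 and ENSMUSG00000023036 as a second Pcdhga8. The RefSeq table, matched by Entrez number, gives them as Pcdha10 and Pcdhgc4, which are the names used here. GENCODE vM21 also names ENSMUSG00000007440 Pcdha11, while it names ENSMUSG00000023036 Pcdhgc4. Pcdhgb8 appears as ENSMUSG00000103081 and ENSMUSG00000109483, which overlap in position. ENSMUSG00000109483 is not a gene of GENCODE vM21, so a vM21 transcript of another gene with the same start and end stood in for it. Its 100% of variable sequences shared with other genes was therefore fixed in advance. ENSMUSG00000103081 shared 96.9%, all of it with that stand-in, whose variable sequences in turn all occur in ENSMUSG00000103081. The 96.9% thus rests on the stand-in too and does not measure sequence shared between separate genes. The 11.9% of constant sequences given above also rests on the stand-in.

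The share of non-whole counts moved with strain. In the gamma cluster 69.6% of values were non-whole in C57BL/6J, 99.3% in CAST/EiJ and 99.6% in NZO/HlLtJ. In C57BL/6J, 11 gamma members were non-whole in all 12 libraries, against 22 members in each of the other strains. Pcdhga2 was non-whole in 0 of 12 C57BL/6J libraries and in 12 of 12 of both others, and Pcdhga3 and Pcdhga6 in 1, 12 and 12. Pcdhb6 was non-whole in 12 of 12 CAST/EiJ libraries but in 1 of 12 in each of the other strains, and Pcdhb8 in 12 against 0 in C57BL/6J and 1 in NZO/HlLtJ. Whether the counting used 1 genome for all strains is not given in the sources used here. The part that strain differences in sequence play in the levels below was not tested.

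**Figure D2:**
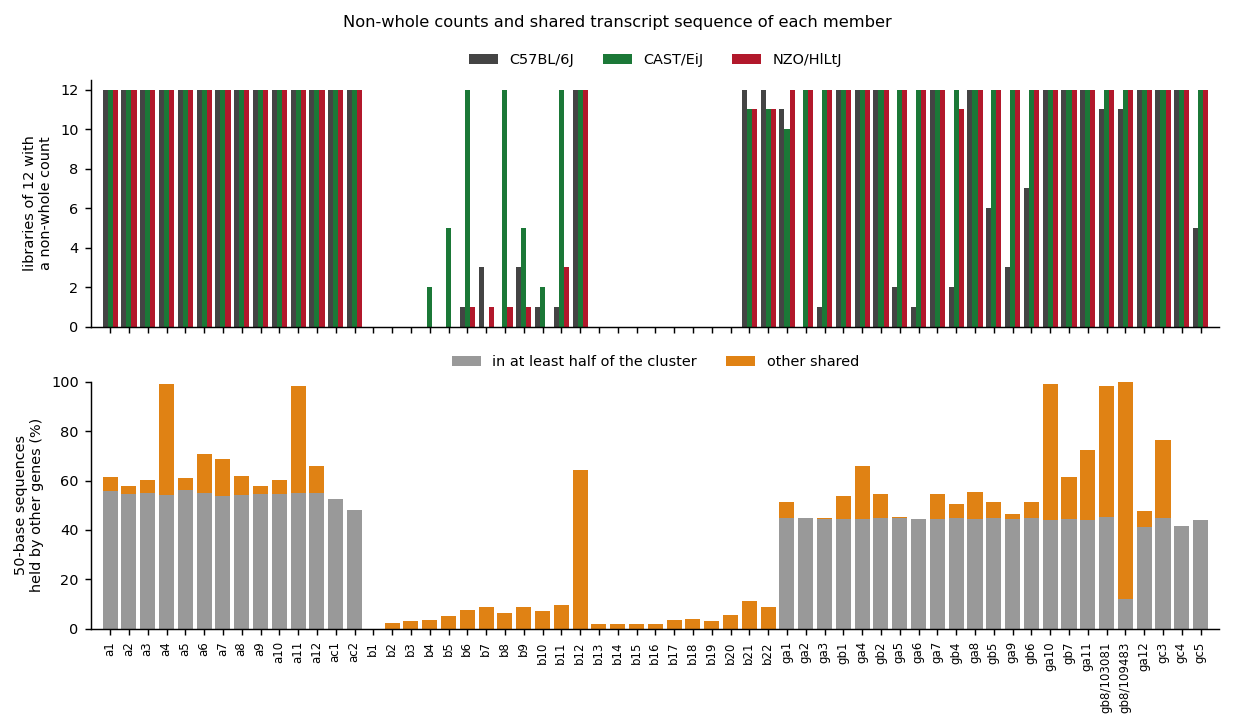
Top, libraries of 12 in which a member's count was non-whole, by strain; bottom, percent of the member's 50-base transcript sequences also held by other genes, with those spread across the cluster in grey and other shared ones in orange. Alpha bars are full in every strain, 11 beta members have none, and 9 gamma members are non-whole in 7 or fewer C57BL/6J libraries while nearly full in the other strains.

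Library totals ran from 22.03 M to 49.61 M counts, and 3 library properties touch the results. Genes of the Hox clusters, which mark the hindbrain level of a dissection, summed to 1.14 and 1.91 CPM in CAST/EiJ male control 1 and 3 and to 2.75 CPM in NZO/HlLtJ male control 3, against a median of 239 CPM in CAST/EiJ and 62.7 CPM in NZO/HlLtJ. The 5 oligodendrocyte markers summed to 11945 to 15570 CPM in C57BL/6J, 5705 to 11264 CPM in CAST/EiJ and 8650 to 16708 CPM in NZO/HlLtJ. Pituitary hormone genes summed to 17405 CPM in NZO/HlLtJ male control 1 and to at most 22.7 CPM elsewhere. In bulk tissue, fewer cells of a type and less RNA per cell cannot be told apart.

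The summed level of each cluster overlapped between strains, and the widest difference in means was in the alpha cluster, where CAST/EiJ exceeded NZO/HlLtJ. Summed alpha CPM averaged 78.7 ± 6.6 in C57BL/6J, 84.2 ± 5.0 in CAST/EiJ and 70.8 ± 7.4 in NZO/HlLtJ (SD, n = 12 each). Summed beta CPM averaged 152.4 ± 11.4, 140.5 ± 7.9 and 151.8 ± 11.3 in the same order. Summed gamma CPM averaged 290.1 ± 13.6, 277.1 ± 34.1 and 269.2 ± 32.7. The libraries of any 2 strains overlapped for every cluster, and differences in the mean log2 sum ran from -0.26 (alpha, NZO/HlLtJ minus CAST/EiJ) to 0.11 (beta, NZO/HlLtJ minus CAST/EiJ), with an SD between single libraries of a group of 0.13 for alpha and gamma and 0.11 for beta. No test was made on sums over members. Without the 3 Hox-poor libraries the gamma difference between CAST/EiJ and C57BL/6J moved from -0.07 to -0.13. The highest gamma sums, 346.9 and 345.8 CPM, were those of CAST/EiJ male control 1 and 3, both among the Hox-poor libraries.

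**Figure D3:**
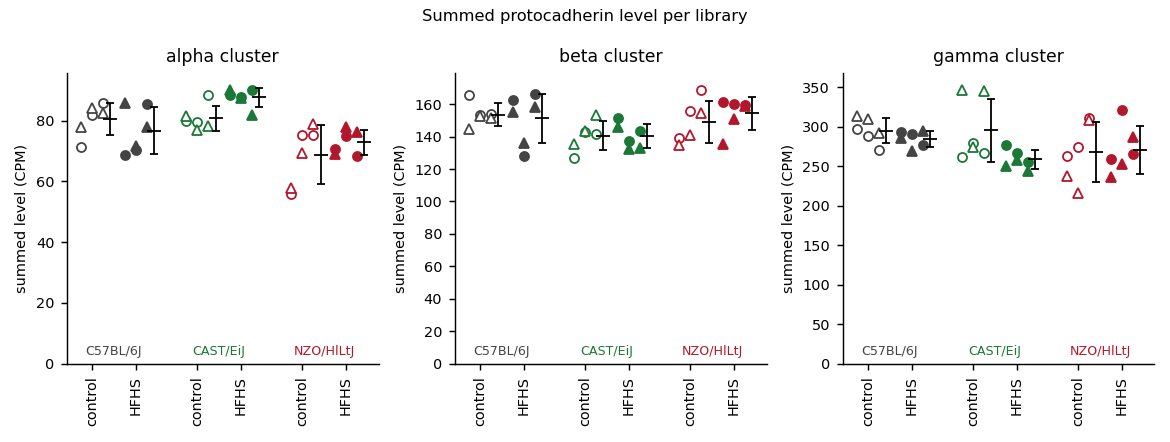
Summed CPM of each cluster per library; circles are females and triangles males, open symbols the control diet and filled symbols HFHS, and the bar is the mean ± SD of 6 libraries. The strains overlap in all 3 clusters, and the 2 highest gamma sums belong to CAST/EiJ males on the control diet.

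Within these sums, single isoforms differed widely between strains. Differences are given as log2 fold changes with SE from edgeR's quasi-likelihood test, and a member is called where its Benjamini-Hochberg adjusted p over all tested genes was under 0.05. Between CAST/EiJ and C57BL/6J, 46 members were called, 17 higher in CAST/EiJ and 29 lower, beside 52.2% of all genes (24.5% higher, 27.7% lower). The median absolute log2 difference was 0.50 for the members and 0.23 for all genes, and the 12 libraries of one strain all lay above the 12 of the other for 20 members, beside 12.6% of all genes. Between NZO/HlLtJ and C57BL/6J, 33 members were called, 7 higher and 26 lower, beside 23.8% of all genes (11.7% higher, 12.2% lower). Here the median absolute log2 difference was 0.27 for the members and 0.13 for all genes, and 7 members had groups that did not overlap, beside 3.67% of all genes. Between NZO/HlLtJ and CAST/EiJ, 40 members were called, 19 higher and 21 lower, beside 49.8% of all genes (27.2% higher, 22.6% lower). The median absolute log2 difference was 0.48 against 0.22 for all genes, and 19 members had groups that did not overlap, beside 10.6% of all genes.

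Each strain pair shares its libraries with the other pairs, so the 3 sets of values are not independent. In all, 51 members were called in at least 1 pair and 20 in all 3 pairs. The shares of all genes called in at least 1 or in all 3 pairs were not computed. Between 23.8% and 52.2% of all genes were called in a single pair, so nothing is read from these counts about the members. The 8 called in none were Pcdha4, Pcdha11, Pcdhac2, Pcdhb1, Pcdhb11, Pcdhb13, Pcdhga10 and Pcdhgc5. Among these, Pcdha4, Pcdha11 and Pcdhga10 are almost covered by another gene model. Both Pcdhgb8 entries, which overlap each other, were called in all 3 pairs. The part of shared sequence in which members were called was not tested. Oligodendrocyte markers moved with the CAST/EiJ comparison, 5 of 5 lower than in C57BL/6J with a median log2 difference of -0.42, and so did 4 of 4 endothelial markers with a median of -0.31. None of the 5 neuron markers was higher and 2 were lower. The part of cell makeup in the members' differences was not tested. Without the 3 Hox-poor libraries, 44 members were called between CAST/EiJ and C57BL/6J.

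**Figure D4:**
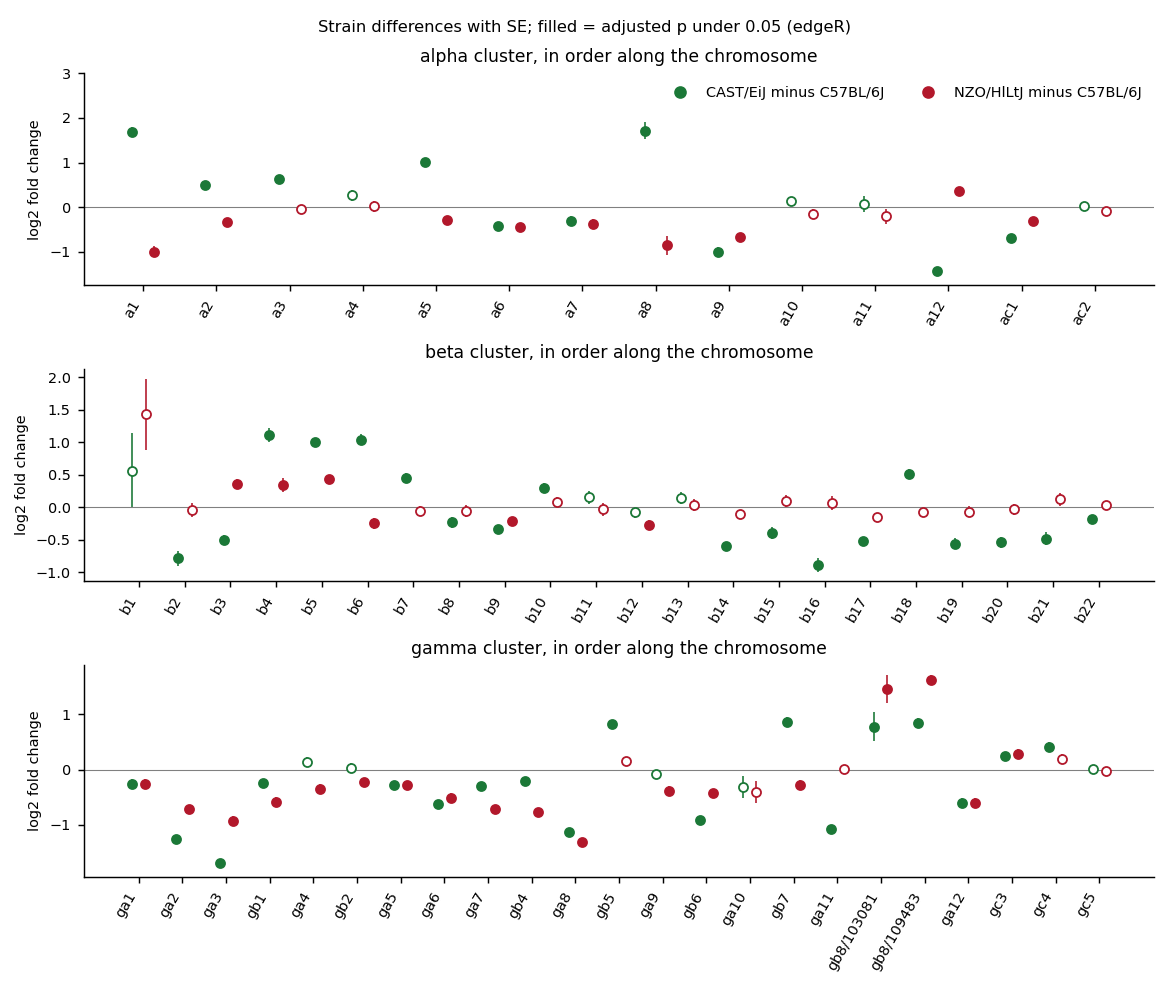
Log2 fold change with SE of each member in chromosome order, CAST/EiJ (green) and NZO/HlLtJ (red) against C57BL/6J; filled points have an adjusted p under 0.05. Differences point both ways in the alpha cluster, neighbouring beta members often lie together in CAST/EiJ, and the gamma members from Pcdhga1 to Pcdhga8 lie below 0 for NZO/HlLtJ.

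In the alpha cluster, 10 of 14 members were called between CAST/EiJ and C57BL/6J (5 higher, 5 lower), beside 52.2% of all genes. Between NZO/HlLtJ and C57BL/6J 9 were called (1 higher, 8 lower), beside 23.8% of all genes. Pcdha1 (ENSMUSG00000103442, positions 36930184 to 37187661), the first alternate isoform of the cluster, ran from 1.21 to 2.43 CPM in C57BL/6J with a median of 1.69. It ran from 3.85 to 7.49 CPM in CAST/EiJ (median 5.94) and from 0.574 to 1.49 CPM in NZO/HlLtJ (median 0.826). CAST/EiJ stood above both other strains without overlap, and the other strains overlapped each other. The log2 difference was 1.69 ± 0.12 for CAST/EiJ and -0.997 ± 0.12 for NZO/HlLtJ against C57BL/6J (adjusted p 1.49e-13 and 1.79e-07), and -2.68 ± 0.12 between NZO/HlLtJ and CAST/EiJ. As a share of the alpha sum, Pcdha1 made up 2.24% in C57BL/6J, 6.81% in CAST/EiJ and 1.27% in NZO/HlLtJ.

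Pcdha8 (positions 36992371 to 37187657) had the same order at lower levels. Its range was 0.245 to 1.35 CPM in C57BL/6J (median 0.6253), 1.27 to 2.99 CPM in CAST/EiJ (median 2.09) and 0.106 to 0.486 CPM in NZO/HlLtJ (median 0.399). CAST/EiJ did not overlap NZO/HlLtJ but met C57BL/6J at its lower end. The log2 difference was 1.71 ± 0.19 for CAST/EiJ and -0.85 ± 0.21 for NZO/HlLtJ, both against C57BL/6J (adjusted p 6.33e-09 and 0.00251). Pcdha5 ran from 2.00 to 3.63 CPM in C57BL/6J, 4.75 to 7.57 CPM in CAST/EiJ and 1.82 to 2.55 CPM in NZO/HlLtJ, again with CAST/EiJ apart, and its log2 difference was 1.01 ± 0.08 in CAST/EiJ and -0.28 ± 0.08 in NZO/HlLtJ against C57BL/6J. Pcdha1, Pcdha2 and Pcdha3, neighbours at the start of the cluster, were all higher in CAST/EiJ than in C57BL/6J.

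Pcdha12 (positions 37020149 to 37187657), the last alternate alpha isoform, went the opposite way. It ran from 3.99 to 6.13 CPM in C57BL/6J (median 4.41), 1.29 to 2.42 CPM in CAST/EiJ (median 1.65) and 4.96 to 6.94 CPM in NZO/HlLtJ (median 5.87). CAST/EiJ lay below both other strains without overlap. The log2 difference was -1.42 ± 0.09 in CAST/EiJ and 0.37 ± 0.08 in NZO/HlLtJ against C57BL/6J (adjusted p 1.14e-14 and 0.00108). Pcdha9 was lower in both strains, by -1.01 ± 0.10 in CAST/EiJ, where the groups did not overlap, and by -0.68 ± 0.10 in NZO/HlLtJ. Pcdha12 shared 24.7% of its variable sequences with other genes, mainly Gm10545, and Gm10545 also fell between C57BL/6J and CAST/EiJ (-0.82 ± 0.21, adjusted p 0.00139). Pcdha9 shared 7.78%.

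In the beta cluster, 18 of 22 members were called between CAST/EiJ and C57BL/6J (6 higher, 12 lower), beside 52.2% of all genes, and 16 between NZO/HlLtJ and CAST/EiJ, beside 49.8%. Between NZO/HlLtJ and C57BL/6J 6 were called (3 higher, 3 lower), a share near the 23.8% of all genes. Several neighbouring members were called in the same direction. Whether such runs go beyond what the number of calls alone would give was not tested. Pcdhb4, Pcdhb5, Pcdhb6 and Pcdhb7 were all higher in CAST/EiJ than in C57BL/6J, and the CAST/EiJ libraries lay above all C57BL/6J libraries for each of the 4. Pcdhb14 to Pcdhb17 and Pcdhb19 to Pcdhb22 were all lower, with Pcdhb18 between them higher (0.51 ± 0.07). The call of Pcdhb22 was lost without the 3 Hox-poor libraries.

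Pcdhb16 (ENSMUSG00000047910, positions 37477814 to 37483038) had whole counts in every library. It ran from 7.83 to 14.2 CPM in C57BL/6J (median 11.9), 4.77 to 7.36 CPM in CAST/EiJ (median 6.41) and 8.85 to 15.1 CPM in NZO/HlLtJ (median 12.54). CAST/EiJ lay below both other strains without overlap. The log2 difference between CAST/EiJ and C57BL/6J was -0.88 ± 0.11 (adjusted p 4.70e-08), and that between NZO/HlLtJ and C57BL/6J was 0.07 ± 0.11, not called. Pcdhb14, also whole throughout, ran from 9.13 to 13.3 CPM in C57BL/6J and 6.08 to 8.52 CPM in CAST/EiJ, a log2 difference of -0.60 ± 0.06.

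On the higher side, Pcdhb5 ran from 3.80 to 5.83 CPM in C57BL/6J (median 4.49), 8.07 to 10.3 CPM in CAST/EiJ (median 9.22) and 4.96 to 7.15 CPM in NZO/HlLtJ (median 6.20). CAST/EiJ stood apart from both other strains, which overlapped. The log2 difference was 1.00 ± 0.06 in CAST/EiJ and 0.43 ± 0.06 in NZO/HlLtJ against C57BL/6J (adjusted p 3.32e-14 and 5.13e-06). Pcdhb4 and Pcdhb6 had CAST/EiJ differences of 1.11 ± 0.11 and 1.04 ± 0.09. In NZO/HlLtJ, Pcdhb4 was called at 0.34 ± 0.11, a call lost without NZO/HlLtJ female control 3 or NZO/HlLtJ male HFHS 3 (log2 0.29 and 0.25), and Pcdhb6 at -0.25 ± 0.09, a call kept in only 26 of 45 alternative settings. Pcdhb2 and Pcdhb3 were lower in CAST/EiJ (-0.79 ± 0.12 and -0.50 ± 0.07), and Pcdhb3 was higher in NZO/HlLtJ (0.36 ± 0.07). Pcdhb9 was lower in both (-0.34 ± 0.07 and -0.22 ± 0.07), and Pcdhb12 was called only between NZO/HlLtJ and C57BL/6J (-0.27 ± 0.08). Pcdhb18 differed by -0.59 ± 0.07 between NZO/HlLtJ and CAST/EiJ, with no overlap.

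Of the 11 beta members with whole counts in all libraries, 9 were called between CAST/EiJ and C57BL/6J (1 higher, 8 lower), beside 52.2% of all genes, with a median absolute log2 difference of 0.54. Likewise 9 were called between NZO/HlLtJ and CAST/EiJ (8 higher, 1 lower), beside 49.8% of all genes, with a median of 0.51. Only Pcdhb3 was called between NZO/HlLtJ and C57BL/6J, a share below the 23.8% of all genes, and the median absolute log2 difference was 0.07 against 0.13 for all genes. Of the 31 members of any cluster that shared under 10% of their variable sequences, 25 were called between CAST/EiJ and C57BL/6J and 13 between NZO/HlLtJ and C57BL/6J. Of the 28 members that shared more, 21 and 20 were called. Over all genes, the shares called in these pairs were 52.2% and 23.8%. Nearly all beta members shared under 10%, so this split also follows cluster. Between NZO/HlLtJ and C57BL/6J, 3 of 4 alpha and 5 of 7 gamma members under 10% were called. In the whole clusters, 9 of 14 and 18 of 23 were called. Whether calls go with shared sequence was not tested.

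The gamma cluster held most of the called members between NZO/HlLtJ and C57BL/6J. There 18 of 23 were called (3 higher, 15 lower), beside 23.8% of all genes (11.7% higher, 12.2% lower). The 11 members in a row from Pcdhga1 to Pcdhga8 were all called lower. The calls of Pcdhga1 and Pcdhgb2 within that row held in 40 and 35 of 45 alternative settings. Between CAST/EiJ and C57BL/6J, 18 members were also called (6 higher, 12 lower), beside 52.2% of all genes. Between NZO/HlLtJ and CAST/EiJ 15 were called (6 higher, 9 lower), beside 49.8% of all genes.

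Pcdhga3 (ENSMUSG00000104346, positions 37674307 to 37841873) ran from 8.34 to 12.6 CPM in C57BL/6J (median 9.76), 2.75 to 4.15 CPM in CAST/EiJ (median 3.08) and 4.68 to 6.07 CPM in NZO/HlLtJ (median 5.49). All 3 strains lay apart, C57BL/6J highest and CAST/EiJ lowest. The log2 difference against C57BL/6J was -1.69 ± 0.08 in CAST/EiJ and -0.92 ± 0.08 in NZO/HlLtJ (adjusted p 8.60e-18 and 2.90e-11), and NZO/HlLtJ exceeded CAST/EiJ by 0.77 ± 0.08. Its neighbour Pcdhga2 had the same order without overlap, at -1.25 ± 0.07 and -0.72 ± 0.07. Both had nearly whole counts in C57BL/6J and non-whole counts in all libraries of the other strains, as given above.

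Pcdhga8 (ENSMUSG00000103897, positions 37725706 to 37841873) was non-whole in all 36 libraries. It ran from 8.46 to 13.2 CPM in C57BL/6J (median 9.75), 3.97 to 6.07 CPM in CAST/EiJ (median 4.57) and 3.15 to 5.46 CPM in NZO/HlLtJ (median 4.07). C57BL/6J lay above both other strains, which overlapped and were not called apart (-0.17 ± 0.07, adjusted p 0.0577). The log2 difference against C57BL/6J was -1.31 ± 0.07 in NZO/HlLtJ and -1.13 ± 0.07 in CAST/EiJ (adjusted p 6.58e-15 and 4.90e-14). Pcdhgb4 was low mainly in NZO/HlLtJ, at -0.76 ± 0.08 against C57BL/6J and -0.56 ± 0.08 against CAST/EiJ, both without overlap.

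Some gamma isoforms were higher in a strain. Pcdhgb7 ran from 8.33 to 11.7 CPM in C57BL/6J (median 10.2), 14.9 to 26.8 CPM in CAST/EiJ (median 17.4) and 5.17 to 10.9 CPM in NZO/HlLtJ (median 8.29), so that CAST/EiJ stood apart. Its log2 difference was 0.87 ± 0.08 in CAST/EiJ and -0.27 ± 0.08 in NZO/HlLtJ against C57BL/6J. Its 2 highest libraries, at 26.8 and 25.4 CPM, were the Hox-poor CAST/EiJ male control 1 and 3. Pcdhgb5 was also higher in CAST/EiJ, at 0.82 ± 0.08 without overlap. Pcdhga11 lay between 5.47 and 9.01 CPM in CAST/EiJ and between 12.8 and 18.8 CPM in the other strains, and NZO/HlLtJ exceeded CAST/EiJ by 1.08 ± 0.07.

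The Pcdhgb8 entry ENSMUSG00000109483 (positions 37761879 to 37840129) ran from 2.61 to 4.56 CPM in C57BL/6J (median 4.04), 5.47 to 9.42 CPM in CAST/EiJ (median 6.25) and 9.61 to 13.6 CPM in NZO/HlLtJ (median 11.8). The 3 strains lay apart, NZO/HlLtJ highest. The log2 difference against C57BL/6J was 1.62 ± 0.09 in NZO/HlLtJ and 0.84 ± 0.09 in CAST/EiJ (adjusted p 1.16e-15 and 1.20e-09). The other entry, ENSMUSG00000103081, moved the same way at lower levels, 1.46 ± 0.26 and 0.77 ± 0.26. The entries overlap in position, so reads could be divided between them. Their values are not taken as independent, though both are counted as members throughout.

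Among the C-type isoforms, Pcdhac2 and Pcdhgc5 were called in no strain pair, and the widest difference was that of Pcdhac1. Pcdhac2 ran from 30.7 to 40.2 CPM in C57BL/6J (median 36.6), 33.1 to 39.1 CPM in CAST/EiJ (median 36.8) and 25.8 to 39.0 CPM in NZO/HlLtJ (median 34.2). The ranges overlapped and the log2 differences were 0.02 ± 0.06 in CAST/EiJ and -0.08 ± 0.06 in NZO/HlLtJ against C57BL/6J, neither called. Between NZO/HlLtJ and CAST/EiJ it differed by -0.10 ± 0.06, not called, and was called at -0.14 without NZO/HlLtJ male control 3. Pcdhgc5 ran from 8.997 to 13.4, 8.50 to 16.7 and 9.26 to 13.2 CPM in C57BL/6J, CAST/EiJ and NZO/HlLtJ, with log2 differences of 0.02 ± 0.07 and -0.03 ± 0.07.

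Pcdhgc3 ran from 60.8 to 83.8 CPM in C57BL/6J (median 71.1), 72.5 to 129 CPM in CAST/EiJ (median 79.3) and 64.5 to 113 CPM in NZO/HlLtJ (median 90.3). It was called higher than in C57BL/6J in both strains, at 0.25 ± 0.07 in CAST/EiJ and 0.29 ± 0.07 in NZO/HlLtJ (adjusted p 0.00545 and 0.00323), though the ranges overlapped. Its share of the gamma sum was 24.9% ± 2.0 in C57BL/6J, 31.2% ± 2.9 in CAST/EiJ and 32.9% ± 2.6 in NZO/HlLtJ (SD, n = 12 each).

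Pcdhgc4 ran from 17.2 to 23.9 CPM in C57BL/6J (median 21.3), 22.4 to 32.6 CPM in CAST/EiJ (median 28.2) and 17.9 to 36.2 CPM in NZO/HlLtJ (median 24.4), the last value from the Hox-poor male control 3. It was called higher in CAST/EiJ (0.41 ± 0.09) and differed by 0.20 ± 0.09 in NZO/HlLtJ (adjusted p 0.0983), which became a call without NZO/HlLtJ male control 1 or 2 (0.23 and 0.24) and was 0.10 without the Hox-poor male control 3. Between NZO/HlLtJ and CAST/EiJ it was called lower (-0.21 ± 0.09), in 35 of 45 alternative settings. Pcdhac1 was lower in both strains, at -0.70 ± 0.10 in CAST/EiJ and -0.31 ± 0.09 in NZO/HlLtJ against C57BL/6J.

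On HFHS, 0 members passed the test in any strain. With edgeR, 1 member had an unadjusted p under 0.05 in C57BL/6J, 12 in CAST/EiJ and 2 in NZO/HlLtJ, beside 525, 3711 and 2012 of all genes. Of all genes, 0% were called in C57BL/6J, 0.269% in CAST/EiJ (0.114% higher, 0.154% lower) and 0.0497% in NZO/HlLtJ (0.00995% higher, 0.0398% lower). No member's 6 HFHS libraries all lay above or below its 6 control libraries in any strain, beside 0.0995%, 0.791% and 0.995% of all genes. DESeq2 called 0, 1 and 0 members in the 3 strains, and limma-voom 0 in each.

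The member nearest to a call was Pcdhgc3 in CAST/EiJ. It ran from 79.0 to 129 CPM on the control diet (median 89.1) and from 72.5 to 82.7 CPM on HFHS (median 74.6), a log2 difference of -0.35 ± 0.10 (adjusted p 0.0870). It was called by DESeq2, with the CAST/EiJ libraries alone and without CAST/EiJ male control 2, where Pcdhgb6 (-0.31) and Pcdhgb7 (-0.35) were called too. The 2 highest control libraries, at 126 and 129 CPM, were the Hox-poor male control 1 and 3, and with the Hox level as a covariate the difference was 0.04. Without the 3 Hox-poor libraries, 0 members were called in CAST/EiJ and 4 had an unadjusted p under 0.05. Markers of other cells also differed in CAST/EiJ. The median diet difference was -1.68 for 6 markers of cerebellar granule and Purkinje cells, -1.21 for 4 of serotonin neurons and 0.28 for 5 of oligodendrocytes. In these 3 lists 0 markers were called. Of 5 astrocyte markers, 1 was called higher, with a median of 0.13, beside 0.269% of all genes called. The cerebellar markers summed to 1811 and 2076 CPM in male control 1 and 3, against a median of 195 CPM on HFHS. The part of these cells in the Pcdhgc3 difference was not tested. The smallest p in C57BL/6J was that of Pcdha7, at 3.28 to 5.13 CPM on the control diet and 2.28 to 3.95 CPM on HFHS (-0.39 ± 0.16, adjusted p 1.00). The smallest in NZO/HlLtJ was that of Pcdhga8, at 3.15 to 4.36 CPM on the control diet and 3.77 to 5.46 CPM on HFHS (0.33 ± 0.11, adjusted p 0.240).

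**Figure D5:**
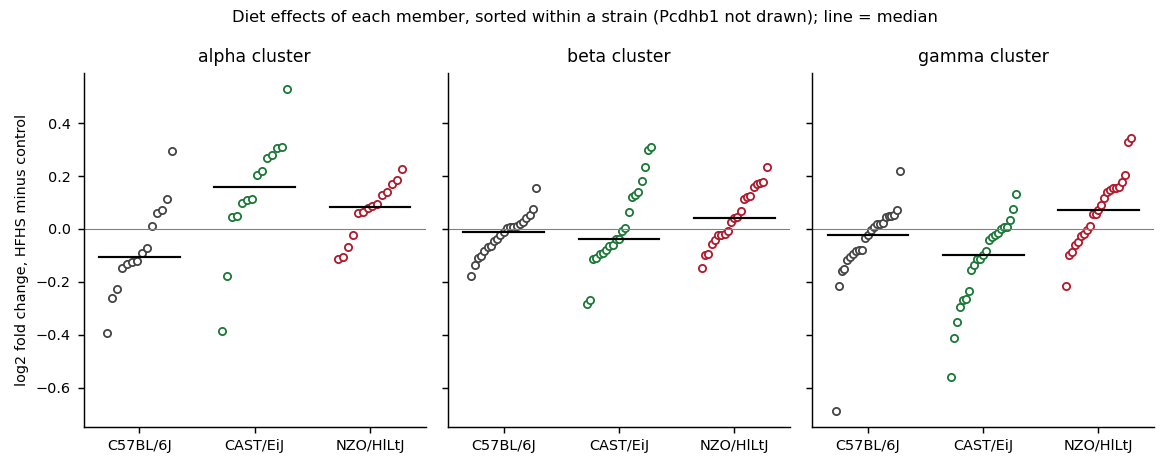
Log2 fold change of each member on HFHS against the control diet, sorted within each strain; the line is the cluster's median, and Pcdhb1 is not drawn. All points are open because 0 members were called, and the medians lie between -0.11 and 0.16.

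By cluster, the median log2 diet difference was -0.11, -0.02 and -0.02 for alpha, beta and gamma in C57BL/6J, 0.16, -0.04 and -0.10 in CAST/EiJ, and 0.08, 0.03 and 0.07 in NZO/HlLtJ. In CAST/EiJ, 12 of 14 alpha members had a positive difference and 17 of 23 gamma members a negative one. Of 20108 genes, 9956 were positive there and 10103 negative. Positive differences numbered 5 alpha and 10 gamma members in C57BL/6J, and 10 and 15 in NZO/HlLtJ. Members of a cluster can share divided reads and are not independent, so nothing is read from these counts. The 22 Hox genes had median diet differences of 0.68, 1.90 and 1.14 in C57BL/6J, CAST/EiJ and NZO/HlLtJ, with 0 called, and their part in these medians was not tested. The test of a strain by diet interaction called 0 members, beside 0% of all genes. With edgeR, 7 members had an unadjusted p under 0.05, beside 1726 of all genes, and DESeq2 called 0. The smallest adjusted p was 0.483, for Pcdha5.

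Pcdhb1, the first beta gene and the lowest member at 0.0866 CPM per kb, rested on 1 library. It reached 2.65 CPM in NZO/HlLtJ male control 1, the library with pituitary hormone RNA, and at most 0.607 CPM in the other 35. With all libraries, NZO/HlLtJ exceeded C57BL/6J by 1.43 ± 0.55 (adjusted p 0.0560) and the diet difference in NZO/HlLtJ was -2.003 ± 0.69. Without that library these values were 0.84 (adjusted p 0.231) and -0.84 (adjusted p 0.750).

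Between the sexes, 1 member was called, lower in males, beside 0.0796% of all genes (0.0249% higher, 0.0547% lower). For 0 members did the males and females not overlap, beside 0.0398% of all genes. Pcdhb3 (ENSMUSG00000045498, positions 37300799 to 37304585), a single-exon beta gene with whole counts in all libraries, ran from 3.63 to 8.38 CPM in males (median 5.85) and from 4.10 to 11.3 CPM in females (median 7.16). The ranges overlapped, and the log2 difference was -0.28 ± 0.06 (adjusted p 0.0469). The call held in 12 of 44 alternative settings, and the adjusted p was 0.247 without the 3 Hox-poor libraries, all of them male. Its neighbours Pcdhb2 (-0.39 ± 0.09) and Pcdhb4 (-0.31 ± 0.09) were not called, with adjusted p of 0.185 and 0.422, though DESeq2 also called Pcdhb2.

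Regulators of promoter choice were read from lists chosen with earlier results of these data known. CTCF and cohesin hold distant promoters and enhancers of the clusters together. Of 13 genes for CTCF, cohesin and their partners, NZO/HlLtJ had 1 higher and 0 lower than C57BL/6J, and CAST/EiJ had 2 higher and 0 lower. Both shares lay below the 23.8% and 52.2% of all genes called. Ctcf itself differed by -0.08 ± 0.04 in CAST/EiJ and -0.03 ± 0.04 in NZO/HlLtJ, not called. On HFHS, Wiz, a zinc finger partner of CTCF and cohesin, was called lower in CAST/EiJ (-0.38 ± 0.08, adjusted p 0.0394). The call held in 28 of 45 alternatives and was lost without the 3 Hox-poor libraries (-0.155, adjusted p 0.986) and with the Hox level as a covariate (-0.10). It was also lost without CAST/EiJ male control 1 (-0.30, adjusted p 0.169) or 3 (-0.35, adjusted p 0.181).

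Of 12 genes for DNA methylation and silencing, CAST/EiJ had 5 higher and 3 lower than C57BL/6J, and NZO/HlLtJ had 4 higher and 0 lower, beside 52.2% and 23.8% of all genes. These shares are not far from the background, and nothing is read from them about the list. Dnmt3b, the methyltransferase known to set methylation at these promoters, averaged 0.919 CPM in C57BL/6J and 2.11 CPM in CAST/EiJ (1.18 ± 0.15, adjusted p 1.26e-07). Hells, a chromatin remodeller needed for DNA methylation, differed by -0.54 ± 0.09 in CAST/EiJ and 0.29 ± 0.09 in NZO/HlLtJ, and its activator Cdca7 by 0.57 ± 0.14 in CAST/EiJ. Lrif1, a partner of the silencer Smchd1, differed by -0.25 ± 0.09 in CAST/EiJ and 0.53 ± 0.09 in NZO/HlLtJ. Smchd1, known to repress the clusters, was not called in either strain (adjusted p 0.954 and 0.870).

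Of 12 non-clustered protocadherins, 5 were higher and 1 lower in CAST/EiJ than in C57BL/6J, and 0 were higher and 1 lower in NZO/HlLtJ. Over all genes, the shares called in these pairs were 52.2% and 23.8%, which also stand beside the counts of the next lists. The protocadherins' called differences lay between -0.46 for Pcdh20 in NZO/HlLtJ and 0.43 for Pcdh8 in CAST/EiJ. Of 18 signalling and processing partners, such as the kinases and the cleavage enzymes that act on the protocadherin cytoplasmic part, 3 were higher and 5 lower in CAST/EiJ, and 1 was higher and 2 lower in NZO/HlLtJ. Of 15 other genes beside the clusters, 5 were higher and 5 lower in CAST/EiJ, from -0.43 for Tmco6 to 0.77 for Cd14, and 1 was higher and 1 lower in NZO/HlLtJ.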

How the data were processed

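Per the labels, polyA RNA was made into libraries (KAPA mRNA HyperPrep, 100 ng input, ERCC spike-in) and sequenced as 100 bp pairs on a NovaSeq instrument, with 30 M pairs as the target. The authors deposited expected counts, which are fractional where reads were divided among transcripts, and variance-stabilised log2 values of the same genes. GRCm38 and DESeq2 are named in the submitters' processing notes, with no version or role. For the aligner, the counter, its annotation release and the use of strand, the tool or setting is "not given in the sources used here".

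Expected counts were rounded and filtered with filterByExpr (minimum count 10, minimum total 15), which kept 20108 of 24344 genes. Libraries were scaled by TMM (factors 0.959 to 1.04), and edgeR 4.0.16 (R 4.3.3) fitted 12 group means to all 36 libraries with a robust quasi-likelihood fit and 24 residual degrees of freedom. P-values were adjusted by Benjamini-Hochberg over all tested genes, with a threshold of 0.05. CPM values are unrounded counts per 1000000 counts of the TMM-scaled library total. A count was called non-whole where it lay over 1e-06 from a whole number. Shared sequence was counted in 50-base windows of 1 transcript per member, matched on either strand to all transcripts of other genes. The procedure was tested on simulated data.

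Members and gene lists were chosen with earlier results of these data known. The named genes were, per cluster and strain pair, the 3 largest called rises and falls, the C-types, the highest member per length, and for diet, sex and interaction the called members or the smallest p. Other members are named for runs, shared sequence or dependence on a library. The labels give no animal ID, collection day or batch, so p-values measure only the spread between these libraries. The 45 alternatives were RLE scaling, no count filter, limma-voom and limma 3.58.1 on the deposited log2 values, DESeq2 1.42.0, an additive model, only the strains compared, a Hox covariate, leaving out the 3 Hox-poor libraries, and leaving out each library in turn. For sex and for the interaction 44 applied.

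Sequences of these genes are not reported here.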

Additional observations from a re-analysis of the deposited data

Results flagged for a closer look

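In 2 groups of 6 libraries, 1 library stood far from the other 5, with a gap of 0.709 and 0.688 of the group's whole range, above Dixon's 95% critical value. Chance gives such a gap in about 1 in 20 groups, and many groups were looked at. Pcdhga8 was at 6.07 CPM in CAST/EiJ female control 3, against 3.97 to 4.58 CPM in the other 5 libraries of its strain and diet. The summed alpha level was 81.8 CPM in CAST/EiJ male HFHS 3, against 87.6 to 90.2 CPM in the other 5.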

How the results depend on the processing

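The number of members called between strains stayed within 30 and 34 for NZO/HlLtJ against C57BL/6J, 44 and 47 for CAST/EiJ against C57BL/6J, and 39 and 43 for NZO/HlLtJ against CAST/EiJ when each library was left out in turn, and within 31 and 34, 44 and 47, and 40 and 42 in the other alternatives. Of the members called, 29 of 33, 42 of 46 and 37 of 40 were called in the same direction in all 45 alternatives. On the deposited log2 scale the same differences were smaller (Pcdha8 in CAST/EiJ against C57BL/6J 0.43 in place of 1.71), as that scale compresses low counts. The number called on HFHS in CAST/EiJ was 0 in the main test, 1 with only the strain's own libraries, 1 with DESeq2, and 0 to 3 when each library was left out, the 3 without CAST/EiJ male control 2. It was 0 in every alternative for C57BL/6J, NZO/HlLtJ and the interaction. The number called between the sexes was 1 in the main test, 0 with RLE scaling, with no filter, without the 3 Hox-poor libraries, with limma-voom and on the deposited log2 values, 2 with DESeq2, and 0 to 1 when each library was left out. Log2 differences in cluster sums moved by less than the SD between libraries in the 38 alternatives that applied, but several small ones moved by over 1.5 times. The gamma difference between CAST/EiJ and C57BL/6J went from -0.07 to -0.13 without the 3 Hox-poor libraries, and ran from -0.09 to -0.05 when each library was left out. That between NZO/HlLtJ and CAST/EiJ ran from -0.08, without NZO/HlLtJ male control 3, to -0.02, without NZO/HlLtJ male control 2. The beta difference between NZO/HlLtJ and C57BL/6J ran from -0.04 to 0.01, on both sides of 0. No paired analysis was possible because replicate numbers were given in accession order only and pair no libraries. Depth limits Pcdhb1, whose count was low in nearly all libraries.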
